A study of Mus musculus with 2 samples.

Results

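The thymosin and prothymosin genes *Tmsb4x*, *Tmsb10*, *Ptms* and *Ptma* were followed in WT and *Cxxc1*-deficient DP thymocytes. They are 4 of the 21041 genes of the deposited table and were found by their symbols. *Tmsb4x* and *Ptms* had been picked because they are among the largest differences of abundant transcripts between the libraries, so the sizes of these differences are a description and carry no test. DP thymocytes are the cells of the thymus that carry both CD4 and CD8, and mRNA was sequenced from 1 library of WT mice and 1 library of *Cxxc1*-deficient mice, taken at a few weeks of age unless otherwise specified. In the study WT mice are *Cxxc1* fl/fl mice, with a part of *Cxxc1* between *loxP* sites, and the deficient mice are *Cxxc1* fl/fl h*CD2*-Cre, where a human *CD2* transgene drives Cre in early thymocytes and in other immune cells. The genotype label of the deficient sample reads *Cxxc1*+/-, which differs from the study's description, and the sample was grouped by its title. The targeted gene itself had a value of 91 in the WT library and 50 in the one labelled deficient. Its ratio was 0.549 (95% interval for counting error 0.340 to 0.881), so it was lower. The 50 lies under 95, the highest of the olfactory receptor genes of that library, whose median of 24 serves below as background. How much *Cxxc1* mRNA remained is thus not resolved. By qPCR the paper found hardly any *Cxxc1* mRNA in deficient DP cells, and it reports loss of the protein there. The table holds 1 value per gene and none for the deleted part alone. The allele was made in ES cells of another strain, and the floxed mice had been backcrossed to C57BL/6 for several generations. Sex and the number of mice behind a library were not given in the sources used here.

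The β-thymosins, *Tmsb4x* and *Tmsb10*, encode short peptides that bind monomeric actin and hold it back from filaments. The prothymosins, *Ptma* and *Ptms*, encode small, very acidic nuclear proteins that bind histones. Prothymosin α is the precursor of the peptide thymosin α1, and it is also known to hinder assembly of the apoptosome, the complex that activates caspase-9, and to bind KEAP1, the inhibitor of NRF2. Thymosins were first isolated from the thymus, and *Tmsb4x* and *Ptma* are among the most abundant mRNAs of many blood cells.

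The coding sequences of both β-thymosins are shown because their likeness bears on whether short reads can tell the genes apart. Each has 135 bases, or 44 codons before the stop (the shortest of the annotated coding parts of *Tmsb4x*), and 40 bases differ (70.4% identical). The capitals mark the bases that differ.
Tmsb4x: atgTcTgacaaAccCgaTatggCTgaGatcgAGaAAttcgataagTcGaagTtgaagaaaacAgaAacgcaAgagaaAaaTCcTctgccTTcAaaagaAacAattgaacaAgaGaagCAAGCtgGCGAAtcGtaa
Tmsb10: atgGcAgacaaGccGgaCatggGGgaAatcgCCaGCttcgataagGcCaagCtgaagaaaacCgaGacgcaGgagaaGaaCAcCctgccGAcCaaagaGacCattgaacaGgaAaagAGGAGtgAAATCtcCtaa

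*Ptma* (111 codons) and *Ptms* (101 codons) are related mainly at their 5′ ends. Over the first 90 coding bases, the part of *Ptma* that covers thymosin α1, 36 bases differ, again in capitals.
Ptma: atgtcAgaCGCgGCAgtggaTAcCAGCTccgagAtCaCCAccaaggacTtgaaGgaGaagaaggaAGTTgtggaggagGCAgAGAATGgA
Ptms: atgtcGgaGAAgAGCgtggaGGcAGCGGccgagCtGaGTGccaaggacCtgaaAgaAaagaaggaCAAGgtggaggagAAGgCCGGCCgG

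The acidic character is visible in the codons: GAA, GAG, GAC and GAT, which encode acidic residues, make up 53 of the 111 codons of *Ptma* (47.7%) and 46 of the 101 of *Ptms* (45.5%), against 11 of 44 in *Tmsb4x* and 10 of 44 in *Tmsb10*. The longest unbroken run of such codons is 8 in *Ptma* (codons 62 to 69) and 12 in *Ptms* (codons 63 to 74), and these runs are in capitals below, within their neighbouring codons.
Ptma: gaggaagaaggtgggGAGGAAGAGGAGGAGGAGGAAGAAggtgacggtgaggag
Ptms: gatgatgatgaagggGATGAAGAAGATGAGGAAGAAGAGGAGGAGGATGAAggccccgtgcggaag

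The unit of the deposited values, which are whole numbers, is not named. The steps of low values given below fit a scaling per transcript length, and on that reading values are compared between genes as levels per length of the whole transcript, whether or not all of it could be read. *Tmsb4x* (mm9 chromosome X, 163645025 to 163647247, minus strand) had a value of 2905 in the WT library against 232 in the *Cxxc1*-deficient one. It ranked 11 of all genes in WT and 247 in the deficient library. *Ptms* (chromosome 6, 124863699 to 124867964, minus strand) had 962 against 65, or rank 101 against rank 3072. *Ptma* (chromosome 1, 88423311 to 88427273, plus strand) had 262 in WT cells and 32 in the deficient library. All 3 of these genes were thus lower in the deficient library. *Tmsb10* (chromosome 6, 72907341 to 72908742, minus strand) was the exception, with 33 in WT cells and 53 in the deficient library. The order of the levels in WT was *Tmsb4x*, *Ptms*, *Ptma* and *Tmsb10*, whereas in the deficient library it was *Tmsb4x*, *Ptms*, *Tmsb10* and *Ptma*.

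The number of reads behind each value was estimated from the table itself. If reads were counted whole, low values of single-transcript genes step by the value of 1 read, and over the olfactory receptor genes these steps gave a value of 4.064 per read and kb of transcript in WT (465 genes) and 4.736 in the deficient library (414 genes). With the longest annotated coding transcript of each gene, the library totals were approximately 1305759 and 683191 reads on the 18579 genes with a length. *Tmsb4x* then rested on approximately 618 reads in WT and 42 in the deficient library, *Ptms* on 272 and 16, *Ptma* on 77 and 8, and *Tmsb10* on 6 and 8. For *Tmsb10* a shorter annotated transcript of 623 bases gave 5.06 and 6.97 reads, close to whole numbers. For *Tmsb4x* a shorter one of 768 bases gave 549 and 37.6 reads. These 2 shorter transcripts are used below for levels per window, whereas intervals of ratios and of deposited values use the longest. With 1 library per genotype there is no replicate, so the 95% intervals given here hold counting error alone and set one library against the other, not one genotype against the other.

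**Figure D1:**
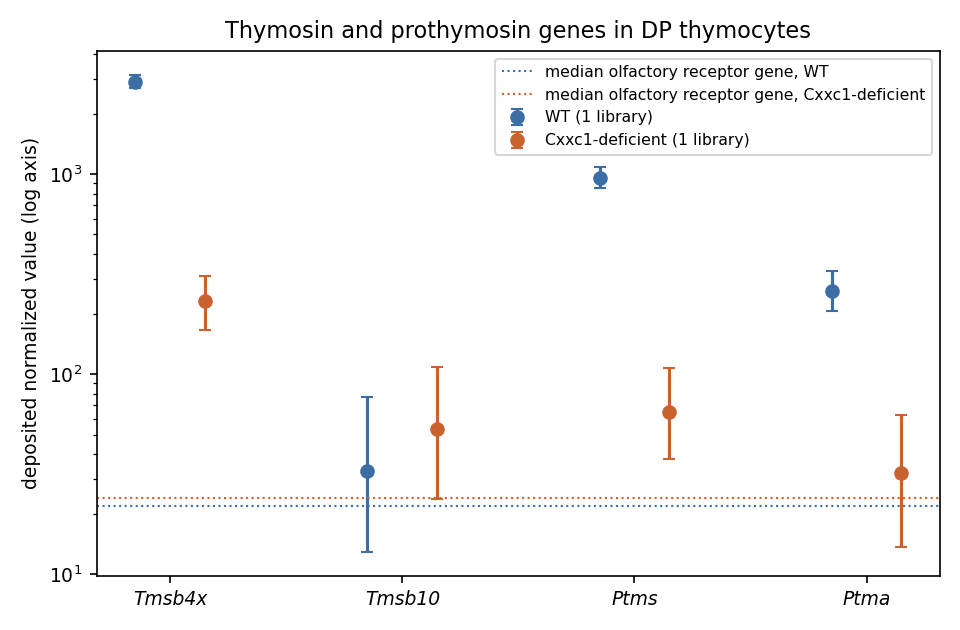
Deposited normalized value of each gene (log axis) in the WT and the *Cxxc1*-deficient library; bars are exact 95% Poisson intervals from the approximate reads, and dotted lines mark the median olfactory receptor gene (22 in WT, 24 in *Cxxc1*-deficient). *Tmsb4x* and *Ptms* were far above these lines in WT, while *Tmsb10* in both libraries and *Ptma* in the deficient library lay near them.

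*Ptms* was 14.8-fold lower in *Cxxc1*-deficient DP thymocytes, with a Clopper-Pearson interval from 8.82 to 25.9. *Tmsb4x* was 12.5-fold lower (9.23 to 17.7) and *Ptma* was 8.19-fold lower (3.99 to 19.8). The 3 intervals overlap, so counting error alone does not separate the sizes of these reductions. The ratio of *Tmsb10* was 1.61 in the other direction, with an interval from 0.473 to 5.43 that includes 1, and a rise or fall of *Tmsb10* was not detectable at this depth. The interval of *Tmsb10* does not reach that of *Tmsb4x*, whose ratio of 0.0799 ran from 0.0565 to 0.108. However, *Tmsb10* lies near the olfactory receptor medians of 22 (WT) and 24 (deficient), and its interval makes no allowance for such background. In the deficient library the counting intervals of *Ptms* (37.7 to 107), *Tmsb10* (23.7 to 108) and *Ptma* (13.7 to 62.6) overlap, so their order there is not resolved. *Tmsb4x* remained above all of them, with an interval from 166 to 311.

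Of the 4 genes, 3 were at least 2-fold lower. Of all 20125 genes above 0 in at least 1 library, 17.4% were at least 2-fold lower. The share grows with the level of the gene. It was 56.8% of the 2472 genes whose mean over both libraries was 100 or more, 50.1% from 100 to under 200, where *Ptma* lies, 68.5% from 200 to under 1000, where *Ptms* lies, and 87.2% of the 39 genes at 1000 or more, where *Tmsb4x* lies, so nothing is read from the count of 3. At 4-fold, passed by the same 3 genes, the shares were 3.34% of all genes, 6.39% at a mean of 100 or more and 38.5% at 1000 or more. At 8-fold, which they passed too, the shares were 0.989%, 0.243% (6 genes) and 5.13% (2 genes). A higher value in the deficient library, like that of *Tmsb10*, was found for 37.2% of all genes, and 5.89% were at least 2-fold higher. Among the 2472 genes, 1 gene (*Ptms* itself) had a ratio as low as that of *Ptms*, 2 had one as low as that of *Tmsb4x* and 5 had one as low as that of *Ptma*. The log2 ratio of the 2472 genes had a median of -1.08, against -3.89 for *Ptms*, -3.65 for *Tmsb4x* and -3.03 for *Ptma*. The rule that chose the genes used this contrast, and these ranks restate it.

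**Figure D2:**
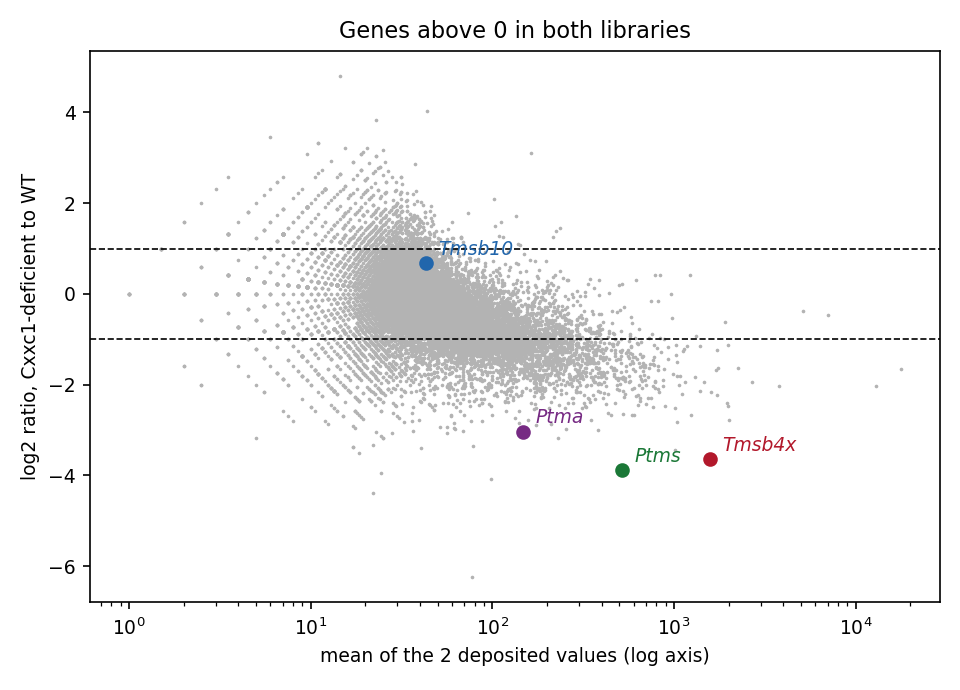
Log2 ratio of the *Cxxc1*-deficient to the WT value against the mean of both values (log axis) for genes above 0 in both libraries; dashed lines mark 2-fold. The cloud bends down with the level. *Ptms*, *Tmsb4x* and *Ptma* (-3.89, -3.65 and -3.03) lie below the bulk of genes of their deposited level, while *Tmsb10* (0.68) lies within it.

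Since reads of 50 bases were kept only where they mapped once, processed copies of these genes could take reads away, and this was checked on the mm9 genome. Every window of 50 bases of each annotated coding transcript was searched in the whole genome on both strands. *Tmsb4x* and *Ptms* had 0 windows with a copy elsewhere, neither exact nor with up to 2 mismatches. All 622 windows of the 768-base *Tmsb4x* transcript that lie within 1 exon were found once, as were all 915 such windows of *Ptms*. Their values and their reductions therefore lost no reads to copies by this measure. The 40 differences between *Tmsb4x* and *Tmsb10* left 0 windows of *Tmsb4x* within 2 mismatches of any place in *Tmsb10*.

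*Ptma* was at the other extreme. Of the 1143 windows of its transcript, 960 lie within 1 exon, and only 87 of these (7.61% of all windows) were found once. The other 873 had an exact copy elsewhere. In addition, all 183 windows that cross a border between exons were found whole in the genome outside the gene, although they do not exist as one piece in *Ptma* itself. The copies lie at 26 loci on 14 chromosomes, of which 18 hold an exact window. The most complete are on chromosome 3 from 124088438 to 124089592, with 913 exact windows, and on chromosome 14 from 9631822 to 9633018, the annotated pseudogene *Gm9800*, with 861. Neither is listed in the table. The loci overlap 5 genes of the table. One window is shown, from the border of exons 2 and 3 in the coding part, with exon 3 in capitals. It stands unbroken at chr3:124088676-124088725, chr4:44136202-44136251 and chr5:73324211-73324260.
Ptma exons 2 and 3: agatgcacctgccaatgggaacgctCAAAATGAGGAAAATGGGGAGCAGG

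The windows of *Ptma* found once form 2 stretches, one that starts at bases 79 to 125, before the coding part, and one that starts at bases 1072 to 1111, near the 3′ end. Apart from its first bases, the coding part had 0 windows found once. The value of *Ptma* in both libraries thus rests on these stretches, if reads were placed as described.

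*Tmsb10* lay between. Of its 623-base transcript, 186 of 574 windows (32.4%) were found once exactly and 121 (21.1%) with up to 2 mismatches allowed. For the other annotated coding transcripts, of 690 and 570 bases, the exact shares were 53.4% and 30.5%. Its copies lie at 11 loci on 8 chromosomes, 10 of them with an exact window, the most complete being *Gm9844* on chromosome 7 from 25647218 to 25647698 with 275 exact windows. For comparison, *Gapdh*, a gene well known for processed pseudogenes, had 12.6% of its windows found once and had a value of 6 in WT cells and 10 in the deficient library.

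**Figure D3:**
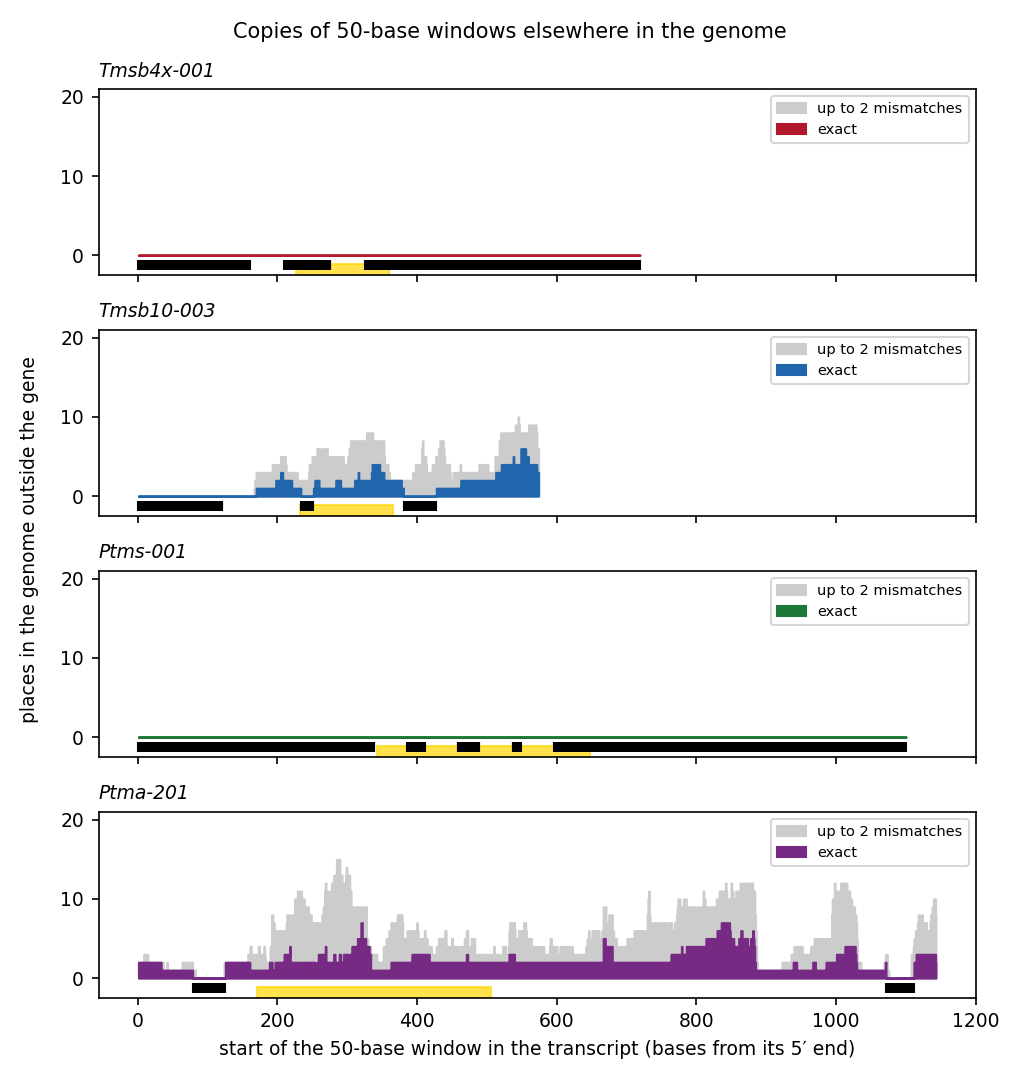
Number of places in the mm9 genome outside the gene that match each 50-base window, by the start of the window in the transcript (bases from the 5′ end), for 1 transcript of each gene; colour, exact matches; grey, up to 2 mismatches; black ticks, windows within 1 exon that were found once; yellow, coding part. *Tmsb4x* and *Ptms* have no copies, and *Ptma* is free of them in 87 windows only.

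The levels were then set over the readable length. This estimate assumes that reads were counted from windows found once and from no others. It also assumes that reads cover a transcript evenly, which was not tested and is not part of the intervals. Over all windows, *Tmsb4x* (768-base transcript) had 76.4 reads per 100 windows in WT, *Ptms* 24.7, *Ptma* 6.72 and *Tmsb10* (623-base transcript) 0.881. Over the windows found once, *Ptma* reached 88.3 (Poisson interval 69.8 to 111), next to 88.3 for *Tmsb4x* (81.0 to 96.0). *Ptms* had 29.7 (26.3 to 33.5), and *Tmsb10* had 2.72 (0.873 to 6.27). On this scale *Ptma* and *Tmsb4x* did not differ beyond counting error in WT, and *Ptma* stood above *Ptms*, whereas the deposited values place it below. Over windows found once with up to 2 mismatches allowed, *Ptma* had 105 in WT and *Tmsb4x* 88.3.

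In the deficient library the same scale gave 9.26 reads per 100 windows for *Ptma* (3.97 to 18.1), 6.05 for *Tmsb4x* (4.32 to 8.39), 3.75 for *Tmsb10* (1.51 to 7.75) and 1.72 for *Ptms* (0.9995 to 2.84). The median olfactory receptor gene had 0.571 reads per 100 windows in the WT library and 0.534 in the other, over 938 genes whose own copies were not searched. These receptors belong to olfactory neurons, and their reads serve as a level of background. All 4 genes were above that median in both libraries on this scale. On the deposited scale *Ptms* (65), *Tmsb10* (53) and *Ptma* (32) in the deficient library were under 95, the highest of 1122 olfactory receptor genes there, and *Tmsb10* in WT (33) was under the highest of 81. Reads on this scale are not scaled for the depth of a library, so they were compared between genes of 1 library and not between libraries.

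**Figure D4:**
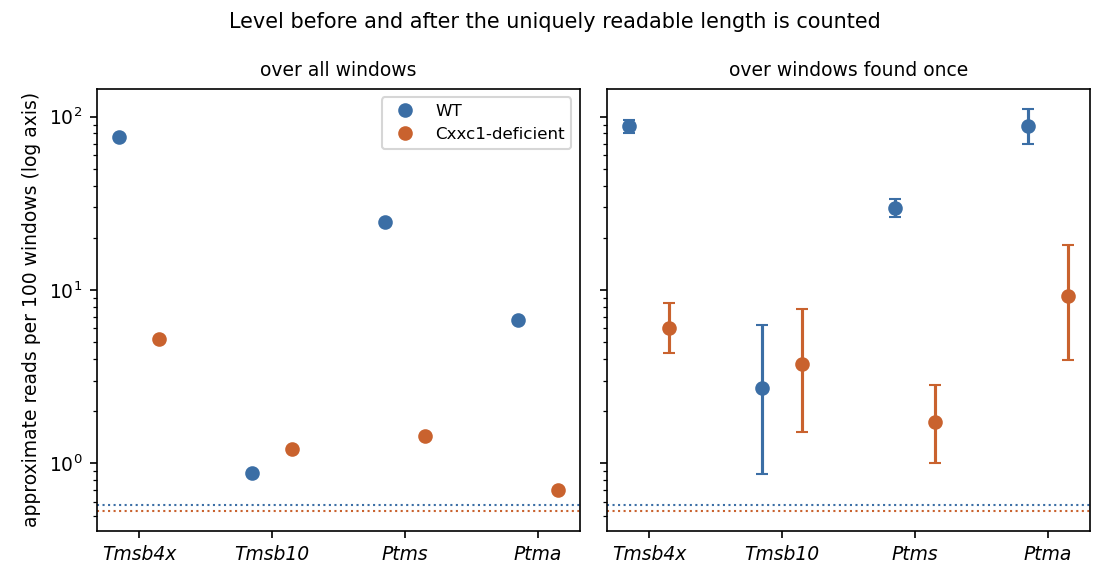
Approximate reads per 100 windows (log axis) of each gene over all windows of its transcript (left) and over windows found exactly once in the genome (right), in WT and *Cxxc1*-deficient libraries; bars are exact 95% Poisson intervals and dotted lines are the median olfactory receptor gene. In WT *Ptma* moves from 6.72 to 88.3, beside 88.3 for *Tmsb4x*, while *Ptms* hardly moves. Even coverage of each transcript is assumed.

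The other thymosin genes of the table are *Tmsb15a*, *Tmsb15b1*, *Tmsb15b2* and *Tmsb15l*, relatives of the β-thymosins on the X chromosome. They had values of 27, 9, 24 and 0 in the WT library and 47, 0, 14 and 0 in the other, at most approximately 5 reads each, and gave no measurable level in DP thymocytes. *Tmsb15b1* and *Tmsb15b2* are near copies of each other and overlap *Tmsb15l*, so their reads are uncertain. In the deficient library *Tmsb4x*, at 232, still had the highest value of the β-thymosins.

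For each gene, the 3 genes with the nearest pair of values were found by the distance of their log2 values over the 2 libraries. The nearest to *Tmsb4x* were *Rsrp1* (1826 in WT, 259 in *Cxxc1*-deficient), *H3f3b* (2137 and 338), which encodes histone H3.3, and *Dntt* (1859 and 172), which encodes terminal deoxynucleotidyl transferase. These lie at distances of 0.69 to 0.78, and 0 genes lay within 0.25. The nearest to *Ptms* were *Cd3d* (680 and 85), a chain of the T-cell receptor complex, *Mns1* (611 and 89) and *Fbxl12* (776 and 122), at 0.63 to 0.96. *Tmsb4x* and *Ptms* thus had no close match in the table. Both were picked for large differences in these same values, so this restates the choice. *Ptma* had 2 genes within 0.25, *Uqcrh* (245 and 34), a subunit of respiratory complex III, and *Ensa* (232 and 35), and next came *Atp6v1d* (273 and 40). *Tmsb10* had 512 genes within 0.25, of which 3 have the same values of 33 and 53, as is common at this level.

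Other properties of the libraries moved with these values. The longest coding transcript of each of the 4 genes is under 1300 bases, and at a mean of 100 or more the 109 genes of such length had a median log2 ratio of -1.51, against -1.08 for the 2209 longer genes. At a mean of 200 or more and without *Tmsb4x* and *Ptms*, the 23 short genes had -1.83, against -1.28 for 797 longer genes. *Tmsb4x* is X-linked, and 99 X-linked genes at a mean of 100 or more had a median of -1.24, against -1.09 for 2241 autosomal genes. Of 15 Y-linked genes, the deficient library had 7 above 0 and the WT library 0, with *Eif2s3y* at 67 and *Ddx3y* at 31 there, while *Xist* had 2419 in the WT and 1021 in the deficient library. The part of transcript length and of sex in the ratios of *Tmsb4x*, *Ptms* and *Ptma* was not tested. The 8 markers of DP thymocytes summed to 34106 in WT and 8346 in the deficient library, with *Rag1* alone at 20778 and 5058. *Ptcra* (79 and 44) was under the highest olfactory receptor gene of each library (81 and 95). All 7 DP markers at a mean of 100 or more were at least 2-fold lower, beside 56.8% of all genes of that level. The sums were 105 and 87 for 5 erythroid and 196 and 167 for 6 B cell markers. For 7 macrophage and dendritic cell markers they were 257 and 252, and for 9 epithelial and stromal markers 304 and 242. Being above 0 does not set markers apart, since all 6 B cell markers were above 0 too. In bulk samples, fewer cells that express a gene and less RNA per cell cannot be told apart.

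Genes that work with the β-thymosins were mostly lower as well, as were most genes of their level. Of 24 genes that bind or turn over actin monomers, 23 were above 0, 17 were lower in *Cxxc1*-deficient cells, 6 were higher and 8 were at least 2-fold lower, and the median log2 ratio was -0.69. Of all genes, 59.9% were lower and 17.4% at least 2-fold lower, with a median of -0.20. At a mean of 100 or more, 6 of 10 genes of the list were at least 2-fold lower with a median of -1.0, beside 56.8% and -1.08 for all genes of that level. With both libraries given one median over genes at a mean of 100 or more, the median of all 23 list genes turned from -0.69 to 0.31. Profilin, which competes with thymosin β4 for actin monomers, was 3.19-fold lower (*Pfn1*, 1240 in WT cells and 389 in the deficient library), the farthest in the list, and *Actb* was 2.40-fold lower (1589 and 662). *Actg1* was listed at 0 in both libraries, with 3.31% of its windows found once. Of 20 genes for filament nucleation, among them the ARP2/3 complex, its activators and formins, 19 were lower and 11 were at least 2-fold lower, with a median of -1.39. At a mean of 100 or more it was 7 of 14 with a median of -1.18, again beside 56.8% and -1.08. The farthest were *Was* (203 and 34), *Actr3* (82 and 15) and *Arpc3* (148 and 28). No gene of both lists that was above 0 had a ratio as low as that of *Tmsb4x*.

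The list of acidic histone chaperones had 17 of 18 genes lower and 10 at least 2-fold lower, with a median log2 ratio of -1.26. Like the prothymosins these proteins bind histones, though not all of them through acidic stretches. *Anp32b* (439 in WT and 83 in *Cxxc1*-deficient) was 5.29-fold lower, *Anp32a* (470 and 108) 4.35-fold and *Anp32e* (1247 and 329) 3.79-fold, all less than *Ptms*. Of the 9 at a mean of 100 or more, 8 were at least 2-fold lower, with a median of -1.58, beside 56.8% and -1.08 for all genes of that level. Of the 13 genes of the apoptosome and of the KEAP1 and NRF2 axis, 9 were lower and 2 at least 2-fold lower, among them *Gclc* (138 and 60), which encodes a subunit of the enzyme that starts glutathione synthesis, and the median was -0.30, which turned to 0.08 to 0.69 under 4 of the other scalings. Of the 6 genes for peptidases that cut thymosins, 2 were lower, 3 were higher and 1 was equal. Their median log2 ratio was 0.14, and 0 were at least 2-fold lower. The 2 lower genes were *Prep*, prolyl oligopeptidase (207 and 109), and *Lgmn*, legumain, which cuts prothymosin α (41 and 28).

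**Figure D5:**
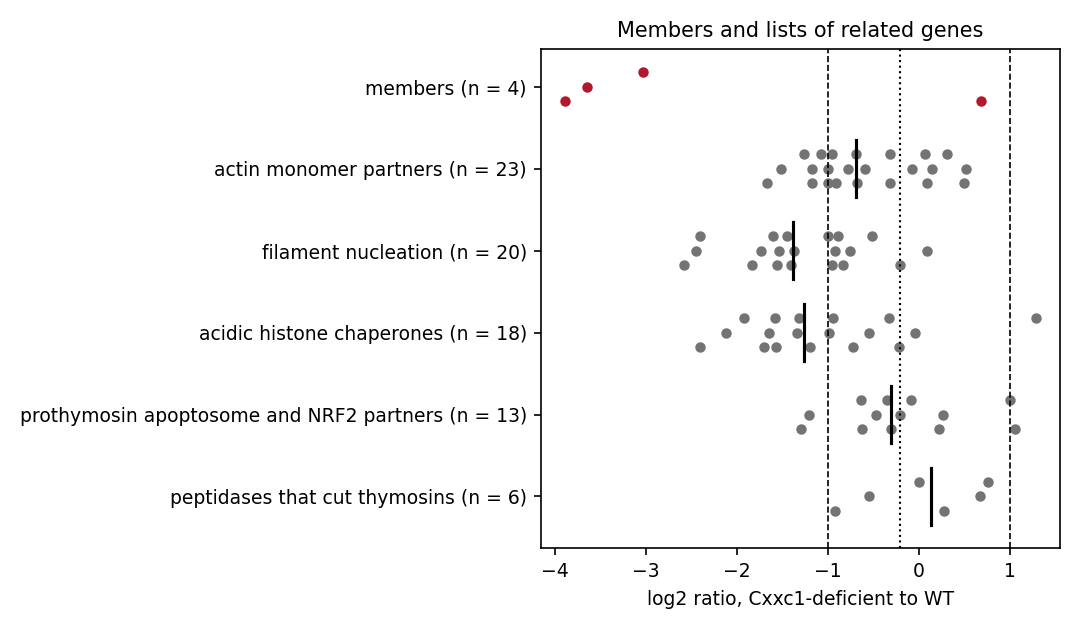
Log2 ratio of the *Cxxc1*-deficient to the WT value for the 4 genes (red) and for genes of 5 lists (grey) above 0 in at least 1 library, with values of 0 raised to 1; bars are list medians, the dotted line is the median of all genes (-0.20) and dashed lines mark 2-fold. *Ptms*, *Tmsb4x* and *Ptma* lie lower than every gene of the lists.

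The promoters of the genes with the largest reductions are shown because CXXC1 is known as a protein that binds unmethylated CpG. In DP thymocytes, however, the paper places only a small share of the CXXC1-binding sites at CpG islands, although binding was enriched at their centre. Each is the 250 bases before the annotated gene start of mm9, with every CG in capitals. The *Ptms* window, chr6:124867965-124868214 (minus strand), holds 21 CG, as many or more than which are found in 20.3% of the windows of 18574 genes. The *Tmsb4x* window, chrX:163647248-163647497 (minus strand), holds 9, a count that 52.9% of windows reach.
Ptms promoter: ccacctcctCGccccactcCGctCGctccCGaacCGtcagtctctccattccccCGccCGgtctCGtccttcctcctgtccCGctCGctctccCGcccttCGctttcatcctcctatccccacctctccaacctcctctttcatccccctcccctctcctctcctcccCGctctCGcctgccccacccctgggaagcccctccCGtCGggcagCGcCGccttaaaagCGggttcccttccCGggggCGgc
Tmsb4x promoter: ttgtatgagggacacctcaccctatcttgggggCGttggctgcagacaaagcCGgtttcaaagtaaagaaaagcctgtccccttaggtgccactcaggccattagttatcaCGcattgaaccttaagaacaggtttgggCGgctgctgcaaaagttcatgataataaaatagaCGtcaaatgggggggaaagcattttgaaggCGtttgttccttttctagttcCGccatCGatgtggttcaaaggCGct

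The windows of *Ptma* and *Tmsb10* hold 22 and 14 CG. *Tmsb4x* thus has the fewest CG of the 4 genes. Whether the number of CG goes with the ratio was not tested, and bases after the annotated start were not counted. At a mean of 100 or more, the 1788 genes with 10 or more CG and the 530 with fewer both had a median log2 ratio of -1.09. CG is its own reverse complement, so both strands hold the same number, and the count says nothing of methylation or of binding.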

How the data were processed

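RNA-seq was analysed for 2 samples of DP thymocytes, 1 library from WT and 1 from *Cxxc1*-deficient mice, grouped by their titles. The authors obtained reads of 50 bases with CASAVA 1.8.2, mapped them to mm9 (Bowtie 1.0.1 in the submitters' processing notes), kept uniquely mapped reads and summarised them with Partek software. What the authors deposited is 1 score for each gene and library: normalized expression in whole numbers. The unit and the gene annotation are not given in the sources used here.

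Values were used as deposited. Ratios used a floor of 1. The steps of low values over olfactory receptor genes (value times length in kb under 25) gave the value of 1 read. Lengths, exons and gene positions came from GENCODE vM1 (NCBIM37, the same build as mm9), and all sequences from its transcripts and genome. Windows of 50 bases were searched with 0 and up to 2 mismatches. Intervals are 95% Clopper-Pearson for ratios and exact Poisson for values. With 1 library per genotype no test was run. The 4 genes, the lists and the alternatives were chosen with earlier results of these data known, as was the set of named genes, which holds the 4 genes, their 3 nearest genes each, the other thymosin genes, *Cxxc1*, *Gapdh*, *Xist*, *Eif2s3y* and *Ddx3y*. A few genes are not reported here by name. Genes named from the lists and the classes of length and CG were picked with their values in view. Lists held actin monomer partners, filament nucleation, acidic histone chaperones, apoptosome and NRF2 partners, peptidases that cut thymosins, and 6 marker lists. Of the latter, the 4 markers of mature T cells had sums of 316 (WT) and 256 (*Cxxc1*-deficient). The value of 1 read was tested on simulated data. Exact matches of the window search were checked by direct counting for spaced windows of the longest transcripts of the 4 genes. The search with up to 2 mismatches was not checked in this way. The tools were numba 0.67.0, scipy 1.17.1, pandas 2.3.3, numpy 2.4.6 and matplotlib 3.10.9 in Python 3.11.15.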

Additional observations from a re-analysis of the deposited data

How the results depend on the processing

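*Tmsb4x*, *Ptms* and *Ptma* stayed at least 2-fold lower under all 8 alternatives run, and the value of *Tmsb10* stayed above 0 on the log2 scale and within its counting interval. The log2 ratio of *Tmsb4x* was -3.65 as deposited. It was -3.08 with equal sums once the 100 highest genes were left out, -2.65 with equal medians of the genes at a mean of 100 or more, and -2.03 with a scaling that removes the trend of the ratio with the level. *Ptms*, at -3.89 as deposited, had -2.89 and -2.68 under the last 2 of these, and *Ptma*, at -3.03, had -4.91 after the median of the olfactory receptor genes was subtracted. The 4 scalings by 1 factor moved the log2 ratio of every gene above 0 in the deficient library by the same amount. The shifts were 0.04 (same median), 0.39 (same 75th percentile), 0.56 (same sum without 100 genes) and 1.00 (equal medians at a mean of 100 or more).

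The share of all genes at least 2-fold lower was 17.4% as deposited. Under these scalings it was 15.97%, 8.86%, 6.54% and 3.51%, with the trend removed 8.34%, after the subtraction 37.4%, with pseudocounts of 1 and 10 16.8% and 11.5%, and for genes at a mean of 100 and of 1000 or more it was 56.8% and 87.2%. The list medians, whose alternatives were added after seeing the data, ran from -1.17 to 0.31 for actin monomer partners, -1.85 to -0.39 for filament nucleation, -1.69 to -0.26 for acidic histone chaperones, -0.39 to 0.69 for apoptosome and NRF2 partners and 0.10 to 1.14 for peptidases. No paired analysis was possible because there was 1 library per genotype, and none could be left out. The number of reads limits *Tmsb10* and *Ptma* most.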
